A study of Mus musculus with 3 samples.

Results

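Pou5f1, Sox2, Nanog and Sall4 are 4 transcription factor genes at the centre of the mouse embryonic stem (ES) cell network, and they were picked by symbol out of 19057 genes read on the array. Each was read by 1 probe set that names no other gene, so the probe set's value is the gene's value. The cells are R1, an established ES cell line of mouse strain 129, and total RNA of 3 biological repeats was read on Affymetrix Mouse Gene 1.0 ST arrays, whose probes lie along the exons of each transcript. The repeats form 1 group with no second condition, and neither a treatment nor the culture medium or feeder layer is described in the labels. The values therefore show whether the 4 genes gave signal and how far each differed between repeats. Whether the repeats came from separate cultures is not stated beyond the word biological, so each spread may be partly technical.

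Pou5f1 (Oct4) is a POU domain protein that binds octamer DNA and, with the HMG box protein Sox2, occupies composite elements in which both sites lie side by side. The pair activates its own genes and Nanog, a homeodomain protein that in mouse ES cells fluctuates from cell to cell and holds back the primitive endoderm programme. Sall4, a Spalt family zinc finger protein, binds near the same enhancers, activates Pou5f1 and recruits the NuRD corepressor. Loss of Pou5f1 in mouse ES cells leads to trophoblast-like cells.

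To show the letters next to the starts of these genes, the 250 bases before the first listed transcription start are given. This was possible for the 3 genes with a promoter in the RefSeq table (build GRCm38.p6, all on the plus strand). Capitals mark every match on either strand to the octamer core ATGCAAA, the Sox core CATTGT, the nuclear receptor motif AGGTCA or the GC box GGGCGG. The windows are chr6:122707239-122707488, chr3:34649745-34649994 and chr17:35505782-35506031.
Nanog: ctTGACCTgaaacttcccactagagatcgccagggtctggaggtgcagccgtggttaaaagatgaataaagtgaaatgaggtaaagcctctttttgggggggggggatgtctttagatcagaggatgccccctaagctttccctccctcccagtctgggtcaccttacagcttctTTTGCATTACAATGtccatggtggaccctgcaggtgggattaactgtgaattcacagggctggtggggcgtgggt
Sox2: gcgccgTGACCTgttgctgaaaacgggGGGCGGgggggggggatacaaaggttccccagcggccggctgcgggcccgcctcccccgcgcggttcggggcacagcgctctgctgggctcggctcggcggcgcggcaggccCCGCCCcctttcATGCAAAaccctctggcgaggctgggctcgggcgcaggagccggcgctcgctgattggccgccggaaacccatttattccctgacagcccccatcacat
Pou5f1: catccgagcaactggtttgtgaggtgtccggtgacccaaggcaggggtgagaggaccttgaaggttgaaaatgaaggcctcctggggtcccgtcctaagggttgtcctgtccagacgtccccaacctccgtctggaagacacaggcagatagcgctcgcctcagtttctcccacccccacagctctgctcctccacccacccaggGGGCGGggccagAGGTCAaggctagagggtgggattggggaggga
In the Nanog window the octamer core and the Sox core lay on the opposite strand, 75 to 69 and 67 to 62 bases before the start. Read on that strand they form the run CATTGTAATGCAAA, which matches the composite CATTGTNATGCAAA. Of 32817 promoter windows of this length, 2 held that composite (0.00609%), and both are Nanog's, from its first and second listed starts, whose windows overlap. The octamer core alone was in 4.13% of windows, the Sox core in 10.7%, the receptor motif in 14.0% and the GC box in 32.7%. The Sox2 window held an octamer core 99 to 93 bases before the start, between 2 GC boxes farther out and the start itself, and a receptor motif 244 to 239 bases before it. The first Pou5f1 window held a GC box 45 to 40 bases before the start and a receptor motif 33 to 28 bases before it, and neither an octamer nor a Sox core. A second listed start of Pou5f1 had a Sox core 158 to 153 bases before it. The enhancers of Pou5f1 and Sox2, where composite elements are known, lie outside these windows. A match is a description of letters and was not tested as a binding site.

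**Figure D1:**
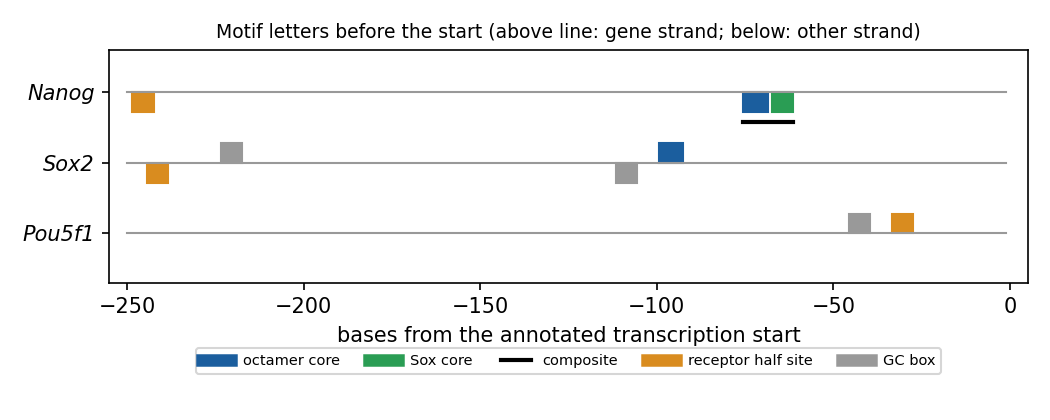
Motif matches in the 250 bases before the first listed start of Nanog, Sox2 and Pou5f1 (rows), by distance in bases from the start. Boxes above a line match on the gene's strand and boxes below it on the other strand; the black bar marks the composite in Nanog, 75 to 62 bases before the start, where the octamer and Sox cores stand next to each other.

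All 4 genes gave strong signal on all 3 arrays. Signal counted as above background on an array when it passed a cutoff drawn from 1170 genes of the olfactory and vomeronasal receptor families, their 95th percentile on that array, at log2 intensity 4.72, 4.60 and 4.61 in repeats 1, 2 and 3. The call was made for 71.4% of the 17887 genes outside the receptor families, so 4 of 4 is read against that share. The lowest array of each gene lay 6.91 log2 units over its array's cutoff for Pou5f1, 6.17 for Nanog, 6.06 for Sox2 and 5.18 for Sall4. Those distances depend on each gene's probes and give no order of abundance between the genes. The 99th percentile of the same receptors, passed by 55% of genes, was exceeded by all 4 on every array, as was the 95th percentile of 123 genes of other silent families, which 37.8% of genes passed. The smallest distance over that highest cutoff was 3.35 log2 units, for Sall4.

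**Figure D2:**
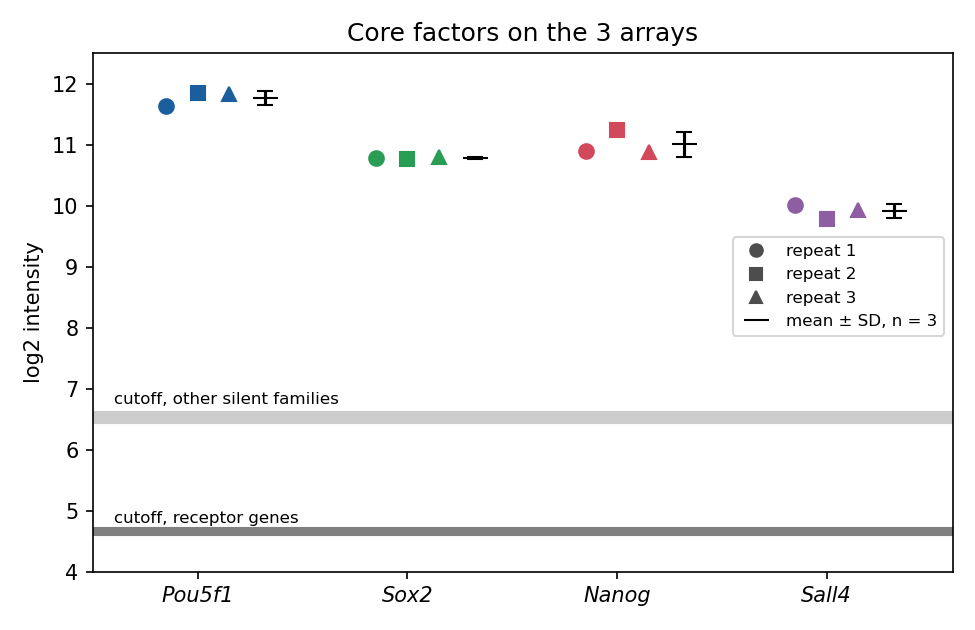
Log2 intensity of Pou5f1, Sox2, Nanog and Sall4 in repeats 1 (circle), 2 (square) and 3 (triangle), with the mean ± SD (n = 3) in black at the right of each gene. The bands span the cutoffs of the 3 arrays from receptor genes (dark) and from other silent families (light), and every point lies above both; heights of different genes come from different probes and are not comparable.

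Pou5f1 read 3175, 3662 and 3641 intensity units in repeats 1, 2 and 3, or log2 11.63, 11.84 and 11.83. Repeats 2 and 3 lay together and repeat 1 was lowest. Its mean was 11.77 ± 0.12 (SD, n = 3), and the highest repeat stood 1.15-fold over the lowest. Repeat 1 stood at -0.20 log2 units from the mean of the other repeats, and the SD of repeats 2 and 3 alone was 0.0059. The mouse genome carries processed copies of Pou5f1, whose transcripts would share its sequence. The 1 copy with a probe set of its own, Pou5f1-rs4, read log2 3.74, 3.58 and 3.88 and was under the cutoff on every array.

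Sox2 was the evenest of the 4 genes. It read 1764, 1736 and 1776 intensity units, or log2 10.78, 10.76 and 10.79 in repeats 1, 2 and 3, a span of 1.02-fold. Its SD of 0.017 around a mean of 10.78 (n = 3) was larger than that of only 274 of the 12820 genes above background on every array. This evenness depended on scaling, since the SD was 0.052 after quantile normalization of the arrays and 0.022 after centring them on their medians. The order of its repeats changed as well, with repeat 2 lowest as deposited and after quantile normalization and repeat 1 lowest after centring. Sox2 lies inside the long noncoding gene Sox2ot in the RefSeq annotation, so RNA of that gene that keeps its introns could add to the signal. Sox2ot had no probe set of its own among those with a single symbol.

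Nanog varied most. It read 1902, 2411 and 1879 intensity units in repeats 1, 2 and 3, or log2 10.89, 11.24 and 10.88. Repeats 1 and 3 lay together, and repeat 2 was higher by 0.35 log2 units than their mean (1.28-fold). The mean was 11.002 ± 0.20 (SD, n = 3). Without repeat 2 the mean was 10.88 and the SD 0.013, though leaving out the farthest of 3 values lowers the SD in any case. The pseudogenes Nanog-ps1 and Nanog-ps2 in the RefSeq annotation resemble Nanog and had no probe set with a single symbol, so RNA from them could not be told apart from Nanog's. As deposited, 96.1% of genes above background had a smaller difference of repeat 2 from the others, counted with its sign.

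Sall4 read 1037, 882 and 970 intensity units, or log2 10.02, 9.78 and 9.92 in repeats 1, 2 and 3. Repeat 2 was lowest, at -0.18 log2 units from the mean of the other repeats, and repeat 1 highest, a span of 1.18-fold. The mean was 9.91 ± 0.12 (SD, n = 3), and without repeat 2 it was 9.97 with an SD of 0.068. The noncoding gene Gm14261 overlaps Sall4 in the RefSeq annotation and was not read by a probe set with a single symbol. The positions of repeat 1 for Pou5f1 and of repeat 2 for Nanog and Sall4 had the same sign after quantile normalization and after centring.

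The spread of each gene was set against the spread of genes at a like level, since SD fell with intensity. Within 0.5 log2 units of Nanog's mean, 96.8% of 217 genes had a smaller SD, and within the same distance of Pou5f1 96.0% of 75 genes did. For Sall4 the share was 76.6% of 698 genes, and for Sox2 7.12% of 309. The fitted trend gave an SD of 0.076 at Nanog's level, 0.068 at Pou5f1's, 0.088 at Sall4's and 0.078 at Sox2's. Nanog's SD was therefore 2.67 times its trend value, Pou5f1's 1.70 times, Sall4's 1.34 times and Sox2's 0.216 times. The limma variance test, which sets each gene's variance over the trend against an F distribution with 2 and 9.86 degrees of freedom, called 0 of the 4 genes and 22 of 13596 genes in all (0.162%). Its Benjamini-Hochberg adjusted p over all genes was 0.552 for Nanog, 0.974 for Pou5f1, 0.992 for Sall4 and 0.998 for Sox2. Nanog was the 1 gene of the 4 with an unadjusted p under 0.05, which 5.75% of all genes had. With 3 arrays, a p that misses the threshold does not show that the repeats were equal.

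**Figure D3:**
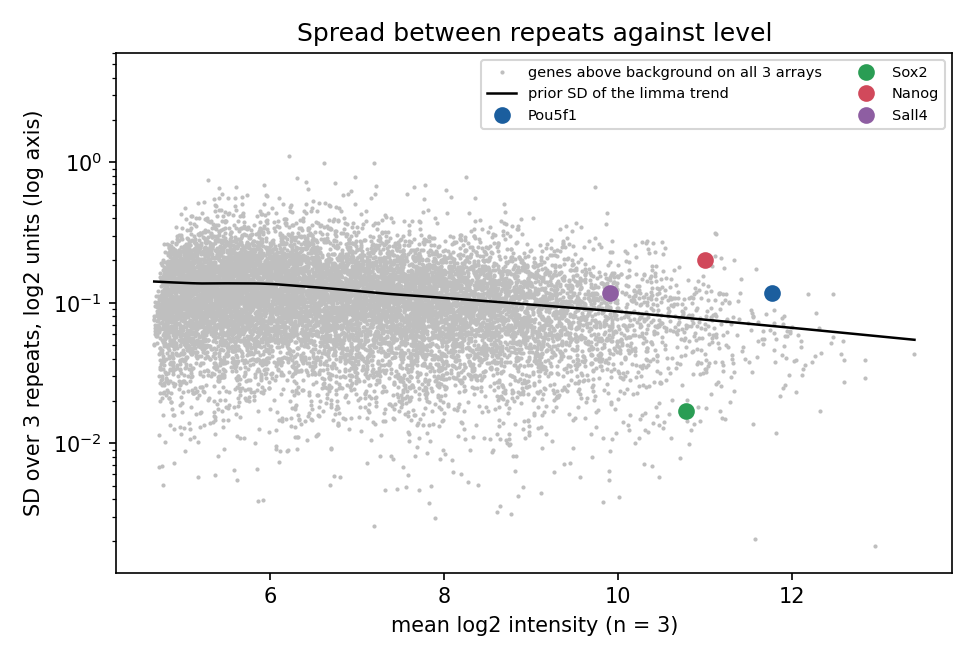
SD over the 3 repeats in log2 units (log axis) against mean log2 intensity, for genes above background on all 3 arrays (grey) and the 4 core factors (coloured), with the prior SD of the limma trend as a line. Nanog (0.20) and Pou5f1 (0.12) lie above the line, Sall4 (0.12) slightly above it and Sox2 (0.017) below it.

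The 4 genes did not move together across the repeats. As deposited, repeat 2 held the highest value of Nanog and the lowest of Sall4 and Sox2. It also held the highest of Pou5f1, where repeat 3 minus repeat 2 was only -0.0084, while repeat 1 held the lowest of Pou5f1 and the highest of Sall4. Differences between 2 genes on the same array do not depend on the scale of that array, and they varied too. Nanog minus Sall4 was 0.57 log2 units higher in repeat 2 than in repeat 1 (1.49-fold), the widest change among the 6 pairs. Pou5f1 minus Sall4 changed by 0.44 between the same repeats. Sox2 minus Nanog was 0.39 higher in repeat 3 than in repeat 2, and Pou5f1 minus Nanog 0.35 higher in the same comparison. Pou5f1 minus Sox2 changed by 0.23 between repeats 2 and 1, and Sox2 minus Sall4 by 0.21, the narrowest. These ratios are given as values, with no test.

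Likeness of pattern was measured as the Euclidean distance between 2 genes' log2 values over the 3 repeats, each centred on its own mean. By it the genes most like Nanog were Wfdc2 (0.0031), Gca (0.0061) and Thumpd1 (0.0063). For Pou5f1 they were Dynlrb1 (0.0016), Rrnad1 (0.0046) and Gmeb1 (0.0053), and for Sall4 they were Zfp367 (0.0041), Prcd (0.0041) and Rfx4 (0.0047). The genes most like Sox2, Rgs12, Hamp2 and Tmem116, lay within 0.0019. With 3 points close matches were common, and 3.31% of 12819 genes lay within 0.1 of Nanog, 12.7% within 0.1 of Pou5f1, 12.3% of Sall4 and 29.3% of Sox2. None of the 4 was near another. The closest pair, Sox2 and Sall4, stood 0.15 apart, with 3313 genes closer to Sall4 than Sox2 was, and the farthest, Nanog and Sall4, stood 0.44 apart.

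Relatives of the 4 factors were read beside them. Of 9 POU genes other than Pou5f1, 8 were above background (71.4% of all genes were), and none exceeded the cutoff from other silent families on all 3 arrays (37.8% of all genes did). Pou2f2 read 5.07 ± 0.19, Pou2f3 5.54 ± 0.27 and Pou3f1, a factor of the later epiblast, 6.31 ± 0.20, while Pou3f2 was below the cutoff at 3.93 ± 0.050 (log2 intensity, SD, n = 3 here and for the genes that follow). The group B gene Sox1, which marks early neural cells, read 6.88 ± 0.17, Sox21 6.33 ± 0.15 and the lone group member Sox15 7.09 ± 0.021. Sox1 and Sox15 exceeded the higher cutoff on all 3 arrays. The 3 Spalt paralogs were above background as well, with Sall1 at 9.95 ± 0.12, Sall2 at 5.56 ± 0.17 and Sall3 at 6.71 ± 0.38. Sall1 alone passed the higher cutoff on every array. Sall3 read 6.68, 7.11 and 6.35 in repeats 1, 2 and 3, so that its repeat 2 was highest where that of Sall4 was lowest (limma variance test, adjusted p = 0.433). None of the 14 tested relatives was called by that test, and Sall3 was the 1 with an unadjusted p under 0.05. Of all genes tested, 0.162% were called and 5.75% had an unadjusted p under 0.05. These shares also stand beside the counts of that test in the lists below.

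Known targets of Pou5f1 and Sox2 were above background in 5 of 5 cases, and 4 of them exceeded the higher cutoff on all 3 arrays, beside 71.4% and 37.8% of all genes. The same shares stand beside the counts of partners and NuRD subunits given next. The growth factor Fgf4, whose enhancer carries a composite element, read 8.72, 8.50 and 8.67 (8.63 ± 0.12). The chromatin protein gene Utf1 read 11.07, 11.04 and 11.23, and the F-box gene Fbxo15 9.43, 9.49 and 9.29. Lefty1, an inhibitor of Nodal, read 6.80, 5.54 and 7.51 and was the only target called (limma variance test, adjusted p = 0.00828). Its repeat 2 stood at -1.61 log2 units from the mean of the others, in the repeat where Nanog was highest. The zinc finger gene Zfp42 (Rex1) read 11.24, 11.34 and 10.75, with repeat 3 lowest (limma variance test, adjusted p = 0.155). The octamer core was in the promoter window of Zfp42 and of Spp1, which was not analysed here for expression, among 4 targets with a window. None of the 4 held the Sox core or the composite.

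Partners in the network were all above background, 11 of 11, and 10 of them exceeded the higher cutoff throughout. Esrrb, an orphan receptor that Nanog activates, read 10.08, 10.19 and 10.12, Klf2 8.96, 8.65 and 8.91, and Klf4 9.43, 9.29 and 9.27. Tfcp2l1, a naive state factor, had the largest SD and read 9.06, 9.55 and 9.06, with repeat 2 above the mean of the others by 0.49. Repeat 2 was highest in 6 of the 11, beside 37% of all genes above background outside the receptor families, and lowest in 4, beside 34.6%. The partners' median difference of repeat 2 was 0.09, against 0.0068 over all genes above background outside the receptor families. After quantile normalization the partners' median was 0.056, with repeat 2 highest in 6 and lowest in 5. The variance test called 0 of the 11 partners (limma, Benjamini-Hochberg), beside 0.162% of all genes tested. An unadjusted p under 0.05 was found for 3 of them, beside 5.75% of all genes tested.

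Subunits of NuRD, a corepressor that Sall4 and Nanog bind, were above background under both cutoffs in 10 of 10 cases. Their median SD was 0.076, and the 698 genes within 0.5 log2 units of Sall4's mean had the same median SD. Mta1 read 8.50 ± 0.12, Mta2 9.54 ± 0.066 and Mta3 6.78 ± 0.089, and none of the 10 had an unadjusted p under 0.05 in the limma variance test. The median difference of their repeat 2 was 0.035 as deposited and -0.013 after quantile normalization, so it had no stable sign. Of 4 orphan receptors known to repress Pou5f1 on differentiation, Nr6a1 read 8.01 ± 0.15 and Nr2f6 passed the higher cutoff too. Nr2f2 read 4.90 ± 0.24, close to the lower cutoff, and Nr2f1 was below it at 4.33 ± 0.067.

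Of 20 markers of other early lineages, 11 passed the receptor cutoff on all 3 arrays, beside 71.4% of all genes, and none passed the higher cutoff on all 3, beside 37.8%. Sox1, which marks early neural cells, was listed with the Sox relatives and is not among the 20. It passed the higher cutoff on all 3 arrays. Of 6 trophoblast genes 3 were above the lower cutoff throughout, with Cdx2 at 5.57 ± 0.16 and Eomes at 6.28 ± 0.17. Gata3, whose 4.77 ± 0.23 gave it the largest SD of the list, passed on 2 arrays, and Elf5 (4.31 ± 0.10) and Tpbpa (2.91 ± 0.070) on none. Of 7 primitive endoderm genes 4 passed the lower cutoff, with Gata6 at 5.93 ± 0.17 and Gata4 at 6.06 ± 0.11, and Sox17 (4.60 ± 0.076), Dab2 (4.50 ± 0.059) and Afp (3.79 ± 0.071) did not pass. Of those 4, 2 were highest in repeat 2, beside 37% of all genes above background outside the receptor families, and 2 in repeat 3. Gata6 read 6.12 in repeat 2 against 5.79 and 5.90 in repeats 1 and 3, and passed the higher cutoff on no array. Of 7 primitive streak and neural genes 4 passed the lower cutoff on all arrays. The neural progenitor gene Nes read 6.65 ± 0.28 and exceeded the higher cutoff in repeat 2. Mixl1 read 5.41 ± 0.020, Gsc 5.98 ± 0.14, Evx1 4.51 ± 0.064, Neurog2 4.23 ± 0.070 and Mesp1 4.46 ± 0.38. None of these markers was called by the variance test (limma, Benjamini-Hochberg), beside 0.162% of all genes tested. Of 13 tested, 2, Mesp1 and Nes, had an unadjusted p under 0.05, beside 5.75% of all genes tested. Mesp1 passed the lower cutoff only in repeat 1, its highest array. It entered the test through that array alone, which favours a wide spread, so its p gives no support for a wide spread.

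Repeat 2, in which Nanog was high and Sall4 low, also differed in other genes. The gene lists that follow were chosen with earlier results of these data known, so their counts are descriptions and give no independent support. Of the 22 genes called by the variance test, 17 lay farthest from the others in repeat 2 and higher there. Of all genes above background outside the receptor families, 37% were highest in repeat 2, whether or not they lay farthest there. The called set was not stable, with 0 genes called without repeat 1 and 34 without repeat 2. Of the 8 POU relatives above background 7 were lowest in repeat 2, with a median difference of -0.20. The share lowest there was 34.6% of all genes above background outside the receptor families. None of these POU genes passed the higher cutoff on all 3 arrays, and the lower cutoff was itself lowest in repeat 2, at 4.60 against 4.72 and 4.61. The 3 orphan receptors above background that repress Pou5f1 were highest in repeat 2 (2 of the 3 after quantile normalization), beside 37% of all such genes. Their median difference was 0.21, and that of Nr2f6 was only 0.026. All 4 formative epiblast genes were lowest in repeat 2, beside 34.6% of all genes above background, with a median difference of -0.66. Their summed intensity was 1185, 774 and 1217 in repeats 1, 2 and 3. Pou3f1 is in this list and also among the 7 POU relatives, so the counts overlap. Fgf5 read 6.47, 5.93 and 6.71, Otx2 8.94, 8.22 and 8.80 and Dnmt3b 9.01, 8.44 and 9.20. Otx2 and Dnmt3b passed the higher cutoff on all 3 arrays, Fgf5 on 1 and Pou3f1 on none. Of 13 fibroblast markers 12 were above background, and 11 of those were highest in repeat 2, beside 37% of all genes above background outside the receptor families, with a median difference of 0.42 and a summed intensity of 1859, 2769 and 1871. Acta2, smooth muscle actin, read 7.57, 9.11 and 8.07 and was the 1 gene of the formative and fibroblast lists that passed the limma variance test (adjusted p = 0.00828), while the collagen genes Col1a1, Col1a2 and Col3a1 read 9.11, 8.52 and 7.46 in repeat 2, each its highest array. Lum, a fibroblast proteoglycan, was below the cutoff on all 3 arrays (4.37 ± 0.20). In these bulk samples fewer cells of a type and less RNA per cell cannot be told apart. The part of these lists in the values of Nanog and Sall4 was not tested.

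**Figure D4:**
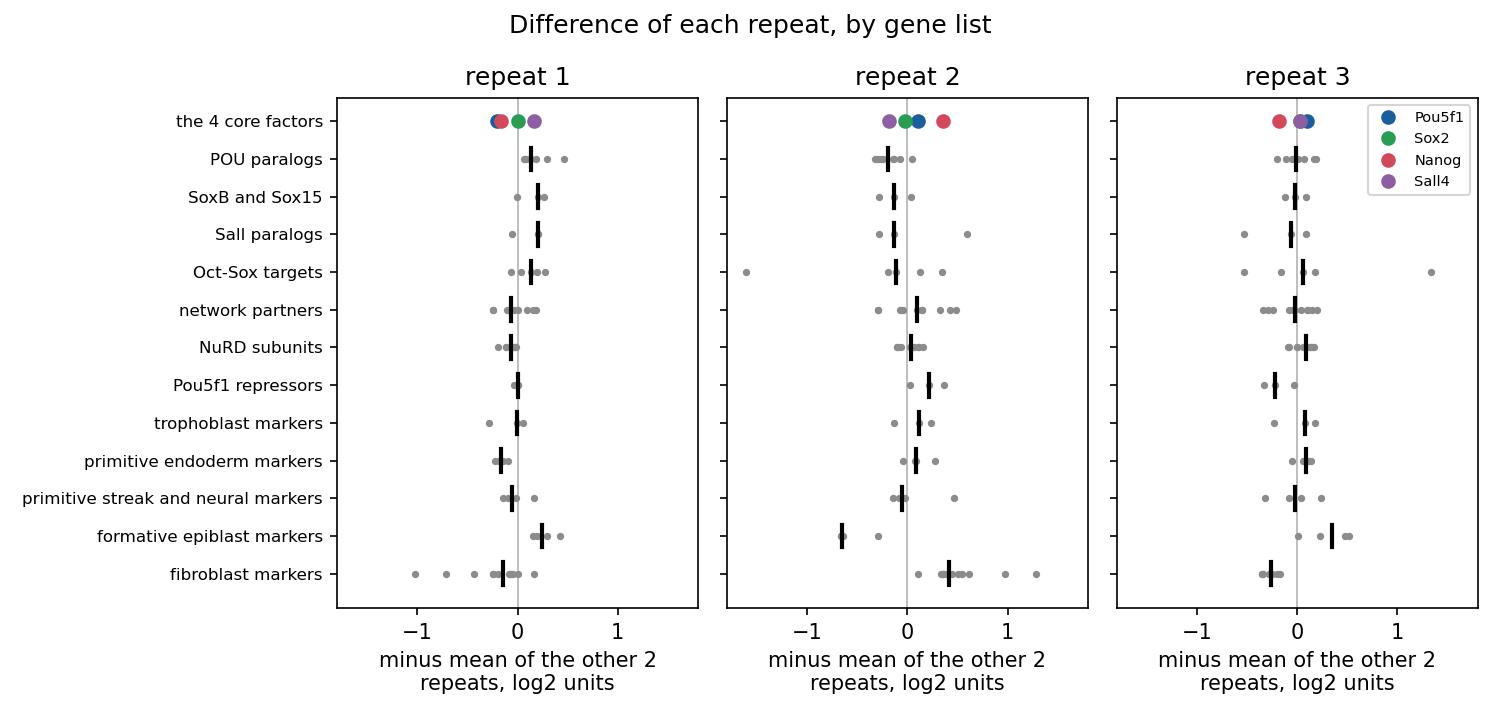
Difference of each repeat from the mean of the other 2, in log2 units, for the 4 core factors (coloured) and for those genes of each list that were above background throughout (grey, with the list's median as a bar). In repeat 2, Nanog lies at 0.35 and Sall4 at -0.18, the formative epiblast genes have a median of -0.66 and the fibroblast markers one of 0.42.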

How the data were processed

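The deposited file holds 1 linear intensity per probe set and array, from 3.49 to 15203, with array medians of 47.8, 46.7 and 46.8 in repeats 1, 2 and 3. Per the submitters' processing notes GCOS 1.4 was used; how background was corrected and arrays were scaled is not given in the sources used here, which could change a fold. The log2 of the intensity was taken with a floor of 1 that changed no value, and no further normalization was applied. Of 26730 probe sets, 20764 had 1 symbol in GEO's platform annotation, 1419 several and 4547 none listed; genes with several probe sets (930) were averaged. Names of 20678 matched RefSeq gene identifiers (GRCm38.p6).

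The variance test used limma 3.58.1 in R 4.3.3 (intercept-only fit, trended and robust prior, Benjamini-Hochberg at 0.05) over the 13596 genes that passed the cutoff on 1 or more arrays. It was tested on simulated data that held shifts larger than the span of any of the 4 genes and no fall of SD with intensity. That simulation therefore does not give the power of the test for differences of the size seen in the 4 genes. Python 3.11.15, numpy 2.4.6 and pandas 2.3.3 did the rest. The members, the lists and the tests were chosen with earlier results of these data known. Genes named are the members, the 3 genes nearest each in pattern, and, in the lists, the first 3 read, the one with the largest SD and those not above background where these were 5 or fewer; Zfp42, Nr2f6, Dnmt3b, Nes and Spp1 were added once their values had been seen. The number of arrays limits the precision.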

Additional observations from a re-analysis of the deposited data

How the results depend on the processing

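For Pou5f1, Sox2, Nanog and Sall4 the call above background held on all 3 arrays under each cutoff tried. The count was also 4 without repeat 2, an alternative chosen after seeing the data that could not lower a call made on every array. Quantile normalization moved the 4 mean levels by less than 1 SD. Leaving out a repeat did so too, but a mean of 3 values cannot shift by 1 SD that way, so this could not fail. Centring on the median and taking the highest probe set could not move the mean levels at all. Centring keeps the mean over arrays, and each gene has 1 probe set. None of 32 alternative variance tests of the 4 genes passed the threshold, with adjusted p from 0.537 to 0.999 over all settings. Repeat 2 of Sox2 stood at -0.028 log2 units from the others as deposited, at -0.072 after quantile normalization and at -0.010 after centring, all close to 0. The number of genes called over the whole table was 22, and it was 39 after centring, 13 with quantile-normalized arrays, 10 when the prior was not robust and 1 when it had no trend. It ranged from 0 to 34 when a repeat was left out: 0 without repeat 1, 34 without repeat 2 (5 shared with the 22) and 11 without repeat 3. The cause was not tested. The 3 arrays of 1 group allow no test of a single repeat, and the cutoffs are limits of detection. No paired analysis was possible because the labels give 1 group.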
